A study of Mus musculus with 22 samples.

Results

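The chromatin of mouse hippocampus was compared between 12 h and 6 h after lipopolysaccharide (LPS), the bacterial cell-wall molecule that triggers inflammation. The comparison rests on 6 of the 22 libraries of the series, 3 at 12 h (replicates 1, 3 and 4) and 3 at 6 h (replicates 1, 3 and 4), chosen by tissue, treatment and time alone. All 6 came from wild type adult male C57BL/6J mice. Every animal, at both times, had drunk corticosterone (CORT, the main stress hormone of rodents) for 7 days, had been injected with diisopropyl fluorophosphate (DFP, an organophosphate that blocks acetylcholinesterase) on day 8 and had then had intermittent CORT over 5 weeks before LPS. The treatment models Gulf War Illness. The time after LPS is therefore the only labelled difference, and with no untreated or saline animal in the comparison, values describe 12 h relative to 6 h. Each library carries the label of a different animal. The labels do not state the clock hour of collection.

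ATAC-seq reads where a transposase can enter the DNA, so its peaks mark open chromatin such as promoters and enhancers. LPS is sensed by Toll-like receptor 4 on microglia and vascular cells, and the signal passes to nuclear factor kappa B (NF-kB), which switches on cytokines within hours and is then curbed by its own inhibitors. Interferon-induced genes and, in the brain, the endothelium and astrocytes follow. Corticosterone acts through receptors that are abundant in hippocampus. The tissue is bulk, so fewer cells of a type and less open chromatin per cell cannot be told apart.

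The libraries held 248850, 284735 and 264985 distinct peak intervals at 12 h, and 258609, 263249 and 228266 at 6 h. The ranges overlapped, and replicate 4 at 6 h was the smallest of the 6. The mean was 266190 ± 17973 at 12 h and 250041 ± 19000 at 6 h (SD, n = 3 each). The two-sided exact permutation test gave p = 0.4 (0.5 after adjustment for 5 library measures), and 3 against 3 cannot go below 0.1. The other 4 measures, namely covered length, median peak width, share of intervals within 1 kb of a gene end and share at windows common to all 6 libraries, also overlapped between the times, with adjusted p between 0.5 and 0.9. The lists hold peaks but no reads, so sequencing depth is unknown.

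**Figure D1:**
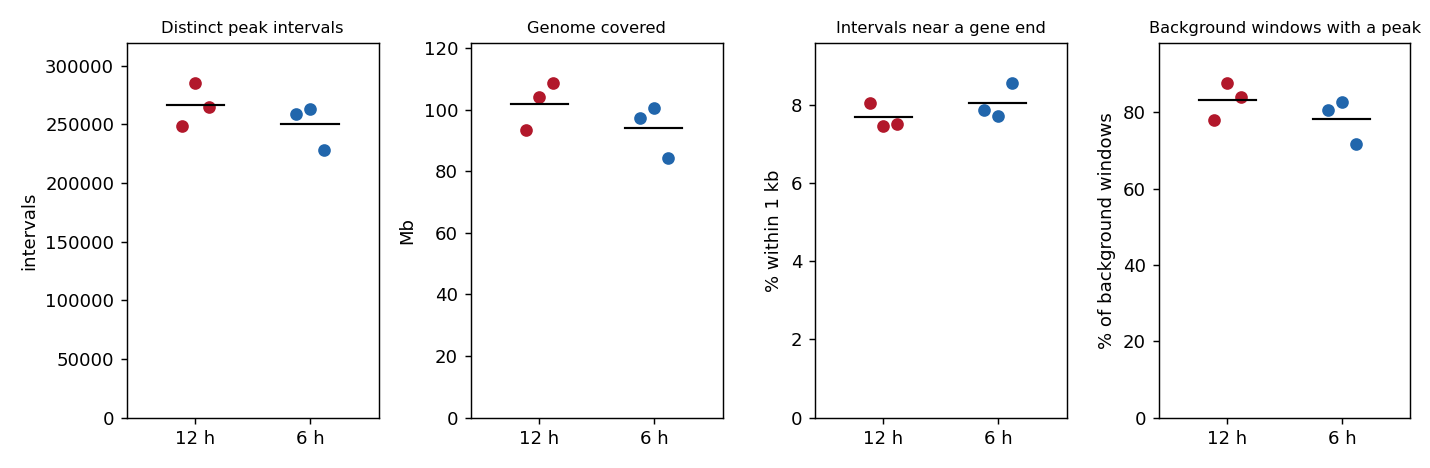
Each point is 1 hippocampal library and each bar a mean of 3; the panels give distinct peak intervals, genome covered in Mb, the percentage of intervals within 1 kb of a gene end, and the percentage of 301077 background windows with a peak. The 12 h and 6 h points overlap in every panel.

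Peaks were joined into 387114 consensus windows reaching 250 bp to each side of a summit, and 301077 of them, the background, had a peak in at least 2 of the 6 libraries. Most open sites were shared: 166748 windows (55.38% of the background) had a peak in all 6. A peak in all 3 libraries at 12 h and in none at 6 h was found at 3884 windows, 1.29% of the background. The converse held for 862 windows, 0.286%. At 1 step less strict, 12149 windows had a peak in 2 of the 12 h libraries and no 6 h library, and 6571 windows in 2 of the 6 h libraries and no 12 h library.

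The excess of 12 h only over 6 h only windows moved with the peaks and libraries used. The ratio of the counts was 4.51 with all peaks. It was 1.78 when every library was limited to its 228266 highest-scoring intervals, the size of the smallest (2333 windows at 12 h only and 1308 at 6 h only, a setting chosen after the data were seen). Without replicate 4 at 6 h, the library with the fewest peaks, the ratio was 1.36, and without replicates 1 or 3 at 6 h it was 2.95 or 3.59. Without replicate 3 at 12 h, the library with the most, it was 2.27, and without replicates 1 or 4 at 12 h it was 6.7 or 4.27. Leaving out a library eases the rule unequally for 12 h only and 6 h only windows, so these ratios can shift by construction. Among the 50000 highest-scoring intervals of each library the ratio was 1.73 (661 and 382 windows). When peaks under a -log10 q of 5 were dropped it was 13.7 (3463 windows at 12 h only and 253 at 6 h only). That cut left lists of unequal size. They held 149034, 188930 and 169791 intervals in replicates 1, 3 and 4 at 12 h, and 157310, 164976 and 127808 at 6 h. Of the 3463 windows, 165 were 12 h only with all peaks, and the others had a weaker peak in at least 1 library at 6 h. The direction was kept in each alternative run, while the size was not. Windows of 1 time only were mostly weak peaks, as given below. The q filter and the limit of 50000 intervals remove weak peaks by construction, so few of these windows could pass. The counts kept do not measure how stable the sites were. Of the 3884 windows at 12 h only, 165 were also 12 h only when peaks under a -log10 q of 5 were dropped, and 35 among the 50000 intervals. Of the 862 at 6 h only, the numbers were 20 and 11.

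**Figure D2:**
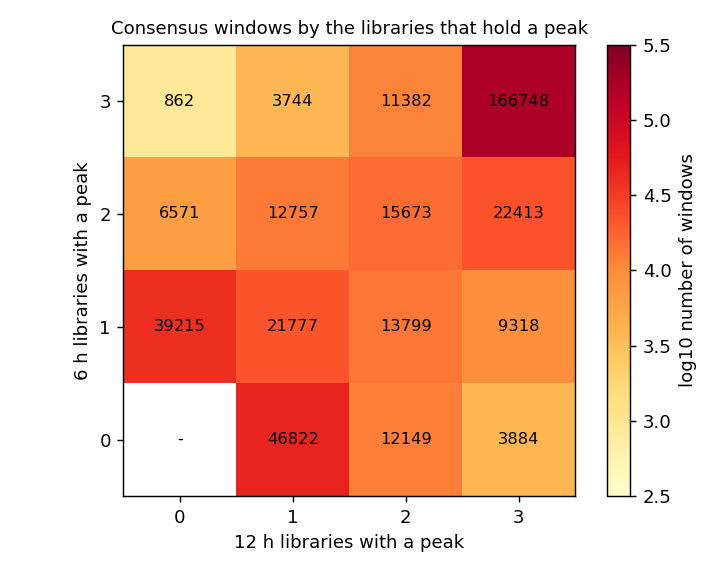
Each cell gives the number of consensus windows by how many 12 h libraries (x axis) and 6 h libraries (y axis) held a peak there, on a log10 colour scale. The corner with all 6 libraries holds 166748 windows, the 12 h only corner 3884 and the 6 h only corner 862.

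The windows of 1 time only were weak peaks. Ranked within its own library, the median 12 h only window lay at the 24.34, 21.78 and 24.73 percentile of peak score in replicates 1, 3 and 4 at 12 h, and the median 6 h only window at 23.0, 24.08 and 20.26 in replicates 1, 3 and 4 at 6 h. Windows open in all 6 libraries had medians from 65.5 to 72.35. Few sites of 1 time only lay at gene ends: 3.347% of the 12 h only and 5.104% of the 6 h only windows were within 1 kb of a gene end, against 8.699% of the background. More 12 h only windows lay far from genes, with 21.47% over 100 kb from any gene, while this share was 11.48% of the 6 h only windows and 15.27% of the background.

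A window can be assigned to 1 time because a broad peak was cut at a different edge, so stand-alone windows were also counted, which was decided once the data had been seen. Of the 3884 windows at 12 h only, 3618 stood alone, meaning that no 6 h interval touched the 12 h interval that carried them (1.2% of the background). Of the 862 at 6 h only, 785 stood alone (0.261%). The 5 highest-ranked windows of each time did not: those at Tab3, Asah1, Mtm1, Ccny and Papola at 12 h, and at Glis3, Med10, Taco1, Zscan26 and Ncbp1 at 6 h, were edges of peaks that the other time also had. With a -log10 q of 5 or more in all 3 libraries as well, 107 windows stood alone at 12 h (0.0355%) and 3 at 6 h (0.000996%). Leaving out replicate 4 at 6 h gave 325 and 128 such windows. That setting also eases the rule unequally for 12 h only and 6 h only windows, so their imbalance can shift by construction.

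The highest-ranked stand-alone windows at 12 h lay in or near genes of several kinds. Dach1, a transcription co-regulator of forebrain development, held one at chr14:98060839-98061339 (mm10), with a fold over background of 4.77, 5.79 and 5.21 in replicates 1, 3 and 4. This window also had a peak in 3 of 3 libraries at 24 h and in 2 of 2 saline libraries. Its peak was thus lacking from the 6 h lists rather than found at 12 h alone, and a missing peak cannot be told from too few reads. Other such windows lay in Prkg2, a cGMP-dependent kinase, in Mmp16, a membrane metalloproteinase, and in Camk2d, a calcium/calmodulin kinase, and 33775 bp from Cat, which encodes catalase.

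Among list genes, a window 4843 bp from Kdr was the stand-alone 12 h only window with the highest minimum -log10 q (5.2), next to 4.91 in Syn3, over 482 genes of 19 lists of inflammatory, stress, clock, neuronal and cell type genes. Kdr encodes the main receptor for vascular endothelial growth factor on endothelial cells. At chr5:75927734-75928234 its fold over background was 3.54, 3.35 and 3.29 at 12 h, and no 6 h library had a peak. It also had a peak in 3 of 3 hippocampal libraries at 24 h, in 0 of 2 saline libraries, and in 3 of 3 cortex libraries at 12 h and 3 of 3 at 6 h. The window was chosen for its absence in the hippocampal 6 h libraries, so a contrast with frontal cortex was not tested.

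Libraries that had not chosen the windows gave a check. The 12 h only windows had a peak at 40.01%, 45.37% and 46.91% of sites in the cortex libraries at 12 h, and at 47.22%, 35.71% and 45.6% in those at 6 h. The groups overlapped, with means of 44.1% ± 3.62 at 12 h and 42.84% ± 6.23 at 6 h (SD, n = 3 each; exact permutation test, two-sided, p = 0.9). The 6 h only windows had a peak at 25.37% ± 1.82 of sites in cortex at 12 h and at 26.1% ± 5.58 at 6 h (SD, n = 3 each; exact permutation test, two-sided, p = 1.0). No difference between the times was detectable in the cortex of the same groups. The cortex libraries come from the same animals as the hippocampal ones, so they are not a separate replication of the animals.

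Within hippocampus, many of these windows were also open in saline animals, though fewer than of all background windows (79.08% ± 3.38 at 24 h, SD, n = 3, and 79.23% ± 5.8 in saline, SD, n = 2), and the libraries disagreed. The 12 h only windows had a peak at 73.4%, 45.4% and 48.9% of sites at 24 h and at 60.9% and 23.9% in saline. The 6 h only windows averaged 39.6% ± 6.13 at 24 h (SD, n = 3) and 53.9% ± 7.63 in saline (SD, n = 2). Of the 3884 windows at 12 h only, 663 (17.1%) had a peak in both saline libraries and 1254 (32.3%) in neither. Of the 862 at 6 h only, 277 (32.1%) had one in both.

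**Figure D3:**
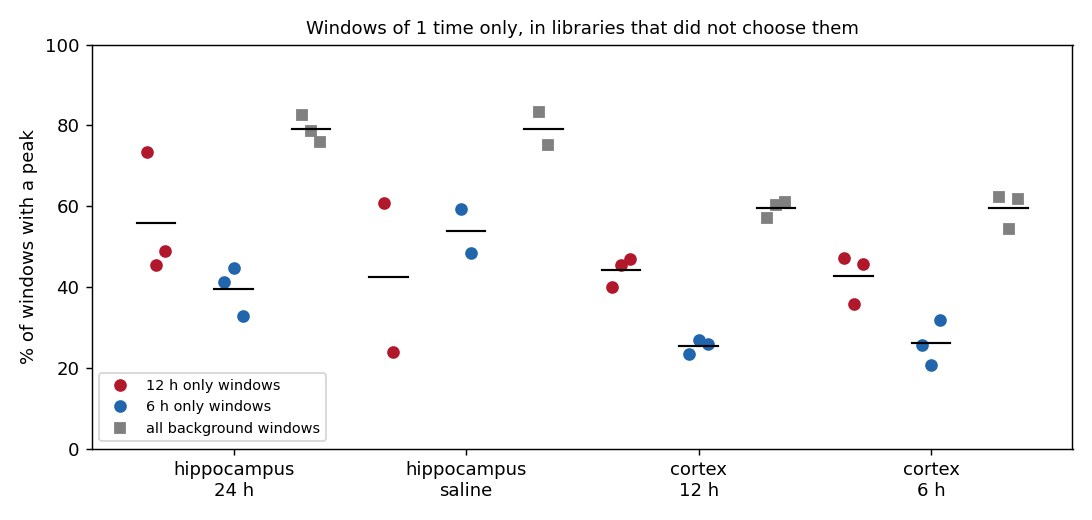
Each point is 1 library, each bar a group mean, and the y axis gives the percentage of windows with a peak; red circles are 12 h only windows, blue circles 6 h only windows and grey squares all background windows, chosen in the 6 hippocampal libraries and read in other libraries. In cortex the 12 h only windows average 44.1% at 12 h and 42.84% at 6 h, and in hippocampal saline libraries they lie at 60.9% and 23.9%.

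The authors' deposited table of hippocampus at 24 h against saline gave a second set of sites that the 12 h and 6 h libraries had no part in choosing. The saline libraries are labelled 6 h, so this table contrasts 24 h with 6 h as well as LPS with saline. Treatment and time cannot be told apart in it, and the 6 h LPS libraries share their time with saline. Of its 97 regions more open at 24 h, 86.6%, 86.6% and 88.66% had a peak in replicates 1, 3 and 4 at 12 h, and 57.73%, 62.89% and 61.86% in replicates 1, 3 and 4 at 6 h. All 12 h libraries lay above all 6 h libraries. The means were 87.29% ± 1.19 at 12 h and 60.82% ± 2.73 at 6 h, a difference of 26.46 percentage points (SD, n = 3 each; exact permutation test, two-sided, p = 0.1, the smallest that 3 against 3 allows; 0.2 after adjustment for 4 region sets). Background windows had a peak at 83.19% ± 4.85 of sites at 12 h and 78.38% ± 5.92 at 6 h (SD, n = 3 each), a much smaller gap. With the number of intervals made equal, the 24 h regions still differed by 25.43 percentage points, and the difference was 24.91 to 27.49 points with any 1 library left out. It was 31.3 points when peaks under a -log10 q of 5 were dropped, and 4.47 points when each library was limited to its 50000 highest-scoring intervals.

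Of the 97 regions, 45 (46.4%) had a peak in more 12 h than 6 h libraries, 2 (2.06%) in more 6 h libraries, and 50 in equal numbers, 43 of them in all 6. Among background windows the shares were 20.4% and 11.7%. A peak in all 3 libraries at 12 h and none at 6 h was found at 7 regions (7.22%, against 1.29% of the background). They lay 4872 bp from Kdr, at the window described above, and in the gene bodies of Scamp2, a membrane protein of secretory vesicles, Wwtr1, which encodes the Hippo pathway co-activator TAZ, Camk2d and Plcxd3, and 2 had no gene within 100 kb. The Wwtr1 region (chr3:57498851-57498910) and the Scamp2 region (chr9:57577551-57577660) had a peak in 3 of 3 libraries at 24 h and in 0 of 2 in saline. The region in Pik3cg, the phosphoinositide 3-kinase of leukocytes and microglia, was open in all 3 libraries of both times. In Elmo1, a regulator of phagocytosis and cell migration, it was open in 3 libraries at 12 h and 2 at 6 h, and in Gab2, a signalling adaptor, in 2 at 12 h and 0 at 6 h.

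The 82 regions of the authors' deposited table that were less open at 24 h than in saline gave no separation. They had a peak at 32.93%, 85.37% and 52.44% of sites in replicates 1, 3 and 4 at 12 h, and at 84.15%, 81.71% and 50.0% in replicates 1, 3 and 4 at 6 h. Libraries of 1 time differed by more than the means, which were 56.91% ± 26.5 at 12 h and 71.95% ± 19.1 at 6 h (SD, n = 3 each; exact permutation test, two-sided, p = 0.7). A peak in more 6 h libraries was found at 34 regions (41.5%) and in more 12 h libraries at 5 (6.1%). Regions in Ptprb, a phosphatase of endothelial cells, and in Uroc1, a liver enzyme of histidine breakdown, were open in 1 library at 12 h and in 3 at 6 h. A region 6432 bp from Fam169a was open in 0 libraries at 12 h and in 2 at 6 h.

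For frontal cortex the same table type lists 4986 regions more open at 24 h, a set added after the data were seen. In the hippocampal libraries they had a peak at 67.98% ± 5.0 of sites at 12 h and 61.37% ± 3.5 at 6 h (SD, n = 3 each), a difference of 6.61 percentage points that was near the gap of all background windows (exact permutation test, two-sided, p = 0.1, or 0.2 after adjustment). Replicates 1, 3 and 4 had 64.9%, 73.75% and 65.28% at 12 h and 62.21%, 64.36% and 57.52% at 6 h. All 12 h libraries thus lay above all 6 h libraries here too. Of the 4986 regions, 57 (1.14%) were open in all 12 h and no 6 h library, close to the background share of 1.29%. The authors' deposited table at 12 h against saline was made with the 12 h libraries and can only be described. Its 1211 regions more open at 12 h had a peak at 90.01%, 93.15% and 82.91% of sites at 12 h and at 57.89%, 61.85% and 72.42% at 6 h. Its 1872 less open regions had a peak at 45.09%, 85.58% and 58.28% of sites at 12 h and at 88.73%, 88.62% and 55.34% at 6 h, and there the libraries of the times overlapped.

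**Figure D4:**
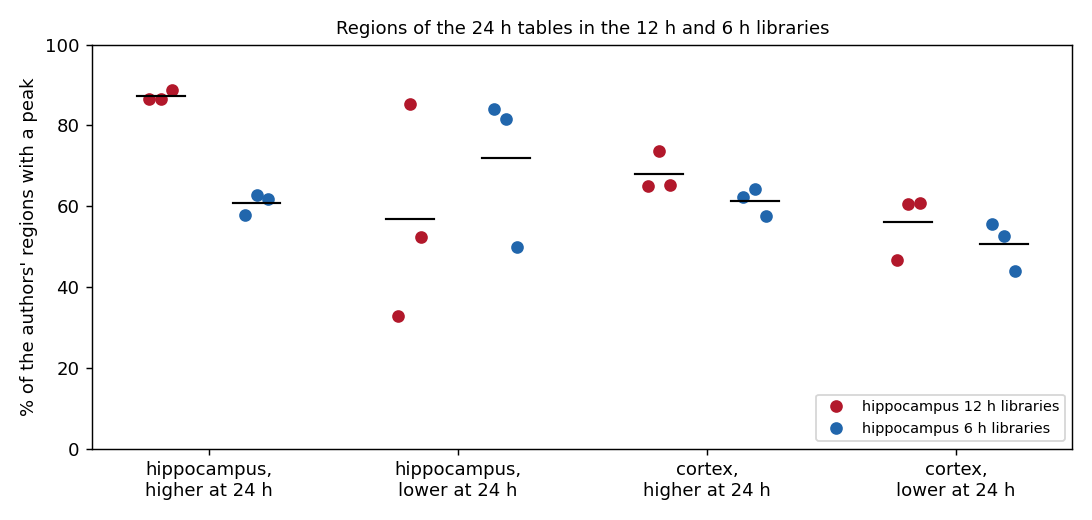
Each point is 1 hippocampal library, red at 12 h and blue at 6 h, each bar is a mean of 3, and the y axis gives the percentage of regions from the authors' 24 h tables with a peak. For the 97 hippocampal regions higher at 24 h the 12 h points lie from 86.6% to 88.66% and the 6 h points from 57.73% to 62.89%; in the 82 lower regions the times overlap.

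Promoters seldom changed. The RefSeq table (GRCm38.p6) gives 32817 distinct promoters of 250 bases before to 50 after a start, of which 16039 had a peak in at least 2 of the 6 libraries and 13850 in all 6. A total of 41 had a peak in all 12 h and no 6 h library (0.256%), and 8 the converse (0.0499%), a comparison added after the data were seen. With equal numbers of intervals the counts were 29 and 20. The 41 include promoters of genes of blood-lineage cells and microglia (Was, Rasal3 and Myo1g), of the interferon-induced family (Isg20 and Ifit1bl1), and of H2-Q6, an antigen-presenting class I gene. H2-Q6 has near-identical relatives among which short reads can be split. These genes were picked after their values were seen, and most of the 41 belong to other kinds of gene.

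The sequences of 4 such promoters are given below because the peaks differ at the starts of genes with known immune or signalling roles. They run 5′ to 3′ on the gene's strand, and capitals mark matches on either strand to TGANTCA (AP-1), CACGTG (E-box), TGACGTCA (CRE), GAGGAA (the core read by the myeloid factor PU.1 and other ETS factors), GAAANNGAA (interferon element), CCAAT or TATAAA. No motif overlaps another in these sequences.
Was, chrX:8090442-8090741, minus strand, 12 h only: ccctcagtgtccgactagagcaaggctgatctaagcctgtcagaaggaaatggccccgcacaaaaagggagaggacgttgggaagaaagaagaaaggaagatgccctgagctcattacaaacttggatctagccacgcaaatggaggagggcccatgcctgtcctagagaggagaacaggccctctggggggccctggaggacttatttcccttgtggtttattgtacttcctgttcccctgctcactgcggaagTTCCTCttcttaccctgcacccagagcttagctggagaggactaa
Rasal3, chr17:32403533-32403832, minus strand, 12 h only: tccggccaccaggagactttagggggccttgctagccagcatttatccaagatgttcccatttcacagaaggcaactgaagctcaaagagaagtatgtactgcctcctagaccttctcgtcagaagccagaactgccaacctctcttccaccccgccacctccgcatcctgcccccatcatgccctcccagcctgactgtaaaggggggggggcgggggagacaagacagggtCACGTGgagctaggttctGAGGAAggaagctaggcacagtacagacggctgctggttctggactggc
Isg20, chr7:78913515-78913814, plus strand, 12 h only: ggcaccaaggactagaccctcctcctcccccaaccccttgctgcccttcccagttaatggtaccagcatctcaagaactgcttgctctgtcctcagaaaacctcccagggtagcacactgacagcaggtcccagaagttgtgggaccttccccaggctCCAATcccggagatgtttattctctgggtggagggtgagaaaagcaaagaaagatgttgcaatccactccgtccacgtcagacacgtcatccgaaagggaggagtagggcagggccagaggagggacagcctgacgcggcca
Cnksr1, chr4:134238350-134238649, minus strand, 6 h only: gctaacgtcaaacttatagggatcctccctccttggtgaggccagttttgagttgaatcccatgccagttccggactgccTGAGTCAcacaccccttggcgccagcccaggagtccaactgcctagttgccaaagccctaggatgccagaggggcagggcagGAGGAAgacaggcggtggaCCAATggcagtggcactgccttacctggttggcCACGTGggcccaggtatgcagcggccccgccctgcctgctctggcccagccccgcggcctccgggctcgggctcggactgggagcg

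Was encodes the actin regulator of blood cells that is lost in Wiskott-Aldrich syndrome. Its promoter had a fold over background of 3.39, 2.59 and 2.74 in replicates 1, 3 and 4 at 12 h and no peak at 6 h, and it had a peak in 3 of 3 libraries at 24 h, 1 of 2 in saline, 3 of 3 in cortex at 12 h and 2 of 3 in cortex at 6 h. GAGGAA is at position 256 of its 300 bases, on the other strand. Rasal3, a Ras GTPase activator of leukocytes, had folds of 3.08, 2.29 and 2.6 at 12 h, with a peak in 3 of 3 libraries at 24 h, 1 of 2 in saline, 3 of 3 in cortex at 12 h and 0 of 3 in cortex at 6 h. It has an E-box at position 234 and GAGGAA at 252, and its pair of annotated starts lies 1 base apart, so that it is counted as 2 of the 41. Isg20, an interferon-induced exonuclease, had folds of 2.81, 2.79 and 2.36 at 12 h, but its 12 h interval touched a 6 h interval outside the promoter, and it had a peak in 2 of 3 libraries at 24 h, 0 of 2 in saline, 3 of 3 in cortex at 12 h and 2 of 3 in cortex at 6 h. Cnksr1, a scaffold of Ras signalling, had folds of 2.83, 3.45 and 3.1 at 6 h and no peak at 12 h, and it had a peak in 2 of 3 libraries at 24 h, 1 of 2 in saline, 1 of 3 in cortex at 12 h and 2 of 3 in cortex at 6 h. It holds an AP-1 match at position 81.

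Across the 41 promoters of 12 h only, GAGGAA was found in 18 (43.9%), TGANTCA in 8 (19.5%) and GAAANNGAA in 4 (9.76%). Over all 32817 promoters the shares were 28.3%, 7.81% and 8.55%. Of the 8 promoters of 6 h only, 5 held GAGGAA (62.5%) and 2 TGANTCA (25.0%). CCAAT was in 4 of the 41 (9.76%), against 37.4% of all promoters, CACGTG in 3 (7.32%, against 7.15%), TATAAA in 5 (12.2%, against 13.6%) and TGACGTCA in 0 (against 1.79%). Some of the 41 overlap: Rasal3 and Gm41638 are each counted more than once, and the promoters of Ccdc42 and Ccdc42os share bases. The 32817 promoters include 15863 with no peak in any of the 6 libraries, so they are not matched to the 41. Matches of letters are a description of these windows.

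Per gene, the number of windows with a peak in the gene body or up to 100 kb from it was compared for 7201 genes with at least 10 background windows. No gene passed limma's test at an adjusted p under 0.05, either higher (0%) or lower (0%) at 12 h, and the lowest adjusted p was 0.235. Unadjusted p under 0.05 was reached by 310 genes with a higher scaled count at 12 h (4.3%) and 248 with a lower one (3.44%). The 3 scaled counts at 12 h lay above the 3 at 6 h for 440 genes (6.11%) and below for 490 (6.8%), a count added after the data were seen. Changes below are log2(windows + 1), scaled by library total, with SE. They are given as values of genes that did not pass.

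Grm8, a presynaptic metabotropic glutamate receptor, had the lowest p. Of its 75 windows, 63, 64 and 66 had a peak in replicates 1, 3 and 4 at 12 h, and 49, 54 and 45 in replicates 1, 3 and 4 at 6 h (log2 0.30 ± 0.06, adjusted p = 0.235). The groups did not overlap. Pde1a, a calmodulin-dependent phosphodiesterase, had 59, 58 and 60 of 70 windows at 12 h and 47, 46 and 46 at 6 h (log2 0.26 ± 0.07), and Dpp10, a subunit of Kv4 potassium channels, 96, 107 and 96 of 118 at 12 h and 86, 90 and 70 at 6 h (log2 0.21 ± 0.05). Arhgap31 had 19, 23 and 22 of 25 windows at 12 h and 16, 14 and 14 at 6 h (log2 0.43 ± 0.09), but -0.04 when peaks under a -log10 q of 5 were dropped. Wdfy4, needed for cross-presentation by dendritic cells, had 24, 25 and 27 of 30 at 12 h and 18, 21 and 15 at 6 h (log2 0.40 ± 0.09). The most 12 h only windows lay in genes with many windows: 10 in Ptprd, a synaptic adhesion phosphatase with 260 (log2 0.12 ± 0.04), 8 in Nrxn3, a neurexin with 294 (log2 0.05 ± 0.04), 8 in Macrod2 with 250 (log2 0.08 ± 0.04), and 7 in Tenm2, a teneurin with 310 (log2 0.11 ± 0.03). Among the 50000 highest-scoring intervals Ptprd turned to log2 -0.0494 and Tenm2 to -0.0578.

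Among genes with fewer windows at 12 h, Slc4a7, a bicarbonate transporter, had 19, 23 and 18 of 25 windows at 12 h and 24, 24 and 23 at 6 h (log2 -0.32 ± 0.09, adjusted p = 0.366). 2900026A02Rik had 32, 36 and 32 of 41 at 12 h and 40, 39 and 37 at 6 h (log2 -0.29 ± 0.07). Emx2, a transcription factor that patterns the hippocampus, had 12, 17 and 15 of 20 at 12 h and 18, 17 and 17 at 6 h (log2 -0.32 ± 0.10). Gpr37l1, an astrocyte receptor, had 9, 13 and 10 of 15 at 12 h and 15, 13 and 12 at 6 h (log2 -0.38 ± 0.11). The raw counts of Slc4a7, Emx2 and Gpr37l1 overlap or meet between the times, and their scaled values do not. The most 6 h only windows lay in Adgrb3, a synaptic adhesion receptor, with 5 of 172 (log2 -0.04 ± 0.04). A further 9 genes had 3, among them Nbea with 148 windows (log2 -0.08 ± 0.05) and Epha4 with 78 (log2 -0.08 ± 0.06). Their unscaled means were not lower at 12 h: 135 at 12 h and 131 at 6 h for Adgrb3, 109 at both times for Nbea and 59.0 at both for Epha4.

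**Figure D5:**
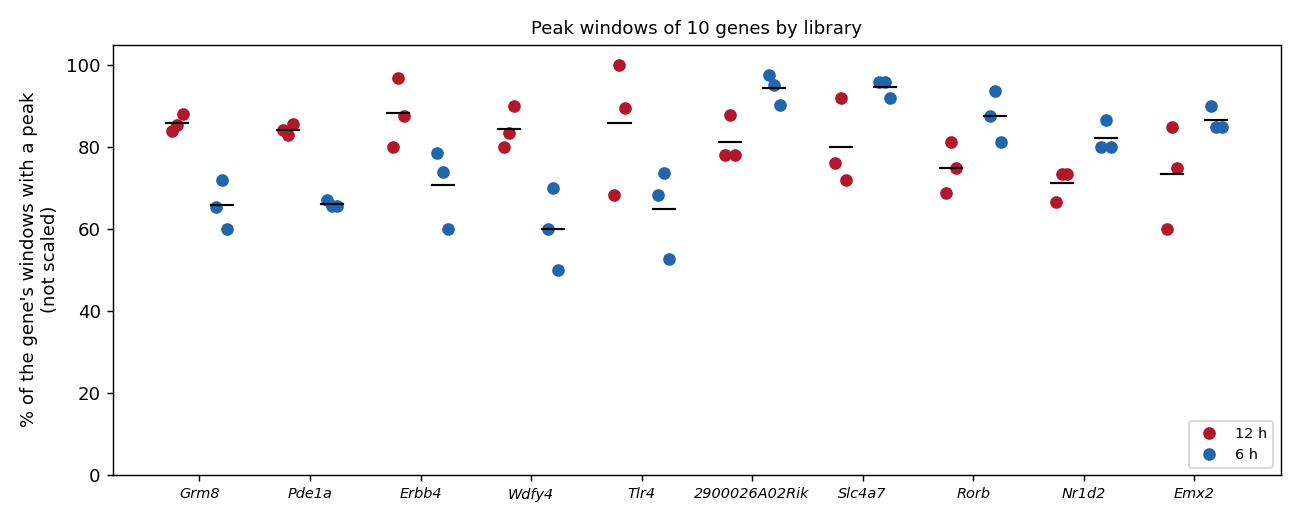
Each point is 1 library, red at 12 h and blue at 6 h, each bar is a mean of 3, and the y axis gives the percentage of the gene's background windows that had a peak, with no scaling for library size. Grm8 and Pde1a have their 12 h points above the 6 h points, Tlr4 overlaps, and Rorb and Emx2 average lower at 12 h; none of the 10 genes passed the adjusted test.

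No list had a member that passed, so the lists are given by counts and medians, beside a median of -0.0024 and 3531 genes up and 3670 down over all 7201 genes. Higher and lower in these counts refer to the scaled values. Tallies by the mean number of windows with no scaling, under which the 12 h libraries held more on average, are given as unscaled. In LPS sensing, 8 of 21 genes had enough windows to be tested, 1 higher and 7 lower at 12 h (median log2 -0.05; unscaled, 4 had more windows, 3 fewer and 1 as many). The higher member was Tlr4 itself, with 13, 19 and 17 of 19 windows at 12 h and 13, 14 and 10 at 6 h (log2 0.30 ± 0.11, adjusted p = 0.509). Traf6, the ubiquitin ligase downstream, had 10, 9 and 11 of 13 at 12 h and 13, 13 and 10 at 6 h (log2 -0.32 ± 0.12). Of NF-kB subunits and inhibitors 4 were tested, 1 higher and 3 lower (median -0.078; unscaled, 2 more and 2 fewer). Their 166 windows held none of 12 h only and none of 6 h only, against 1.29% and 0.286% of all background windows. These are too few windows to tell them apart from those shares. The 193 windows of LPS sensing held 2 of 12 h only and 2 of 6 h only (1.04% each). Cytokines and acute response genes divided 8 higher to 8 lower (median -0.021; unscaled, 10 to 4), and interferon genes 4 to 5 (median -0.037; unscaled, 6 to 2), with Ifnar1, a chain of the type I interferon receptor, at log2 -0.27 ± 0.12.

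Of the glucocorticoid and stress genes 15 were tested, 6 higher and 9 lower at 12 h (median -0.0084; unscaled, 10 to 3), and Tsc22d3, a classic glucocorticoid-induced gene, had 13, 14 and 14 of 16 windows at 12 h and 15, 14 and 14 at 6 h. Of 16 circadian clock genes, 4 were higher and 12 lower at 12 h (median -0.069, the lowest of the lists after NF-kB). Unscaled, 7 of them had more windows at 12 h, 5 fewer and 4 as many. The lowest p among them belonged to Rorb, a nuclear receptor, with 11, 13 and 12 of 16 windows at 12 h and 14, 15 and 13 at 6 h (log2 -0.29 ± 0.10, adjusted p = 0.507), then Nr1d2, a clock repressor, with 10, 11 and 11 of 15 at 12 h and 12, 13 and 12 at 6 h (log2 -0.27 ± 0.10), and Clock (log2 -0.27 ± 0.12). Without scaling the median of the clock list was 0.0098 and that of all genes 0.077; every list median then lay above 0, from 0.0014 for NF-kB to 0.13 for blood leukocytes, so the signs given here are relative to the library totals. Immediate early and activity genes divided 10 higher to 3 lower (median 0.044; unscaled, 11 to 1), and this median was -0.11 when peaks under a -log10 q of 5 were dropped.

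No cell type marker list had a member that passed. Medians were 0.038 for microglia (8 of 12 tested higher at 12 h, unscaled 9), 0.012 for endothelial and mural genes (9 of 14, unscaled 13), 0.056 for blood leukocytes (3 of 3, unscaled 3), -0.027 for astrocytes (7 of 15, unscaled 10), -0.037 for the oligodendrocyte lineage (4 of 13, unscaled 8), 0.019 for excitatory neurons (11 of 17, unscaled 15), -0.022 for inhibitory neurons (8 of 19, unscaled 14) and -0.043 for choroid plexus and ependyma (3 of 9, unscaled 6). Spi1, which encodes PU.1, had 9, 11 and 11 of 11 windows at 12 h and 8, 9 and 8 at 6 h (log2 0.20 ± 0.12, adjusted p = 0.751). Aqp4, the astrocyte water channel, had 12, 16 and 11 of 19 at 12 h and 16, 18 and 13 at 6 h (log2 -0.34 ± 0.11). Erbb4, the neuregulin receptor of interneurons, had 52, 63 and 57 of 65 at 12 h and 51, 48 and 39 at 6 h (log2 0.24 ± 0.06, adjusted p = 0.366). Drd2, the dopamine receptor of striatal neurons, had 12 of 13 windows in each 12 h library and 9, 11 and 7 at 6 h (log2 0.32 ± 0.12).

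Neighbouring tissue could move with dissection, so its markers are given beside these values. The hippocampal region list had 7 of 24 tested genes higher at 12 h (median -0.025; unscaled, 18 had more windows), and Zbtb20, a factor of hippocampal identity, had 114, 128 and 121 of 150 windows at 12 h and 133, 130 and 113 at 6 h (log2 -0.13 ± 0.04, adjusted p = 0.493). The thalamic, striatal and cortical list had 17 of 26 higher and 9 lower (median 0.014; unscaled, 22). Drd2, given above as higher at 12 h, is on this list, and so is Rorb, given above with the clock genes, which was lower (log2 -0.29 ± 0.10). All 30 matched hippocampal markers had at least 1 background window, but so did all 32 of the neighbouring list, so peaks near genes do not by themselves set the tissues apart. The part of tissue makeup in the results was not tested. Of 11 tested cholinergic and organophosphate genes 3 were higher at 12 h (median -0.028; unscaled, 8 had more windows), and of 30 synaptic genes 18 (median 0.0039; unscaled, 28).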

How the data were processed

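Frozen hippocampus (20 to 30 mg) was profiled by OMNI-ATAC-seq and read in pairs of 50 bp, per the labels. MACS2 2.2.7.1, Bowtie2 2.4.4, Trim Galore 0.6.7 and FastQC 0.11.9, and the mm10 build, are named in the submitters' processing notes. The authors deposited 1 peak list per library. Each peak has the authors' score and fold enrichment ratio, and its p and q as -log10 values; these served to rank and filter peaks inside a list. Each list reaches down to a -log10 p of about 2.0 and so holds weak peaks. In the authors' deposited differential tables (csaw, per the series' design text) a number with each region was read as -10 times log10 of the FDR, and regions on chromosomes 1 to 19, X and Y were used. A p-value or FDR printed for a region is the authors'.

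Computed here: windows over the 6 libraries (a peak is present if at least 50% of the shorter of window and interval overlaps), nearest RefSeq gene bodies, and limma 3.58.1 with a trended prior on log2(windows + 1), adjusted by Benjamini-Hochberg over 7201 genes. SE comes from that fit. Single values were compared by exact permutation over the 20 splits of 6 libraries. Window presence and limma were tested on simulated data: of genes planted at 2.0-fold on the 12 h against 6 h counts of 7201 genes, 83 of 100 were called, of 1.5-fold, 56 of 100, and of unchanged genes, 6 of 7001. The simulated counts were independent binomial draws without added spread between animals, and could not exceed a gene's windows. The median fitted log2 size was 0.778 for 2.0-fold and 0.514 for 1.5-fold. These rates therefore do not give the power of limma on the real libraries. Named genes were the lowest p per direction, the most windows of 1 time only, and up to 3 per list by p; a selection of them is printed. Members and lists were chosen with earlier results of these data known. Alternatives were other peak filters, overlaps, gene assignments, scalings and left-out libraries. Tools were R 4.3.3, Python 3.11.15, pandas 2.3.3 and scipy 1.17.1.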

Additional observations from a re-analysis of the deposited data

How the results depend on the processing

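The ratio of 12 h only to 6 h only windows stayed above 1.0 in every setting run. The 12 h only count was 3463 at a -log10 q of at least 5, 661 among the 50000 intervals of highest score per library, 2333 with equal numbers of intervals and 13685 with replicates 3 and 4 only, and 6380 to 8855 with 1 library left out. The 6 h only count was 253 at a -log10 q of at least 5, 382 among the 50000 intervals, 1308 with equal numbers and 3025 with replicates 3 and 4 only, and 1322 to 4700 with 1 library left out. Fewer libraries ease the rule by construction. Stand-alone windows at that q numbered 823 and 36 with replicates 3 and 4 only, and 221 to 456 at 12 h and 10 to 128 at 6 h with 1 library left out. Promoters of 12 h only numbered 25 among the 50000 intervals and 175 with replicates 3 and 4 only (69 to 98 with 1 library left out), and those of 6 h only 20 with equal numbers and 50 with replicates 3 and 4 only (23 to 47). 

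The cortex difference at 12 h only windows ranged from -2.76 to 3.76 percentage points with 1 library left out, and that at 6 h only windows from -3.65 to 0.79. Median peak width differed by -1.0 bp at a -log10 q of at least 5, and by -4.0 to 12.5 bp with 1 library left out. The 97 regions higher at 24 h differed by 4.47 percentage points among the 50000 intervals and by 31.3 at a -log10 q of at least 5. The 82 lower regions differed by -3.05 without 12 h replicate 1 and by -29.3 without 12 h replicate 3. With replicates 3 and 4 only, limma called 1 gene higher, Fgf13, and 1 lower, Zranb1. Arhgap31 had log2 -0.0424 at a -log10 q of at least 5, Ptprd -0.0494 and Tenm2 -0.0578 among the 50000 intervals, and Nrxn3 -0.00326 (without 6 h replicate 4) to 0.0942 with 1 library left out; the cause was not tested. With a replicate block limma called 0 genes higher and 0 lower (283 and 224 at an unadjusted p under 0.05). Same-numbered libraries share only a number: their deviations from the group means correlated at -0.0725, 0.0955 and 0.0107 for replicates 1, 3 and 4. The peak lists give no read depth, so a missing peak cannot be told from too few reads.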
